A study of Homo sapiens with 2 samples.

Results

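Most of the dual-specificity phosphatases (DUSPs) described here remove phosphate from both the threonine and the tyrosine of the activation loop of MAP kinases. They thereby switch these kinases off. Many of them are transcribed in response to the kinases they switch off, so that they act as negative feedback of the ERK, JNK and p38 pathways. In lymphoid cells the nuclear members are known as early response genes after antigen receptor or mitogen stimulation. The 10 DUSP genes described here were chosen by name (DUSP1, DUSP2, DUSP4, DUSP5, DUSP6, DUSP7, DUSP8, DUSP10, DUSP16 and DUSP22), and every probe set annotated to exactly one of these symbols was taken. This gave 23 of the 54675 probe sets of the array. The genes were chosen with results of these arrays known, so their values are given as a description.

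Gene expression had been measured in L-428 cells, an established Hodgkin lymphoma (HL) cell line, on Affymetrix HG_U133PLUS2.0 microarrays, of which there was 1 for each of both conditions. Vector control cells carried the empty plasmid pcDNA6.2-GW/EmGFP-miR-neg. The PRAME knock-down cells carried pcDNA6.2-GW/EmGFP-miR-PRAME, from which an artificial microRNA against PRAME is expressed. Both vectors also encode the fluorescent protein EmGFP, and stable transfectants had been selected with blasticidin; whether these were clones is not given in the sources used here. The general text of the series names another HL line and array type, whereas both sample labels name L-428. Neither condition was replicated, so no test could be made, and precision is limited by having a single array of each.

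The deposited values were MAS5 signals, a measure of probe set brightness on a linear scale; the authors scaled them to one trimmed mean on both arrays (500.1). The brighter part of the probe sets, from their median brightness of 97.7 upwards, was kept, and log2 ratios of knock-down over control were set so that the median kept probe set lies at 0. The level of one probe set was not set against that of another, since brightness depends on the probes. The targeted gene PRAME read 2115 with the control vector and 1251 after knock-down, a log2 ratio of -0.80. The HL cell markers fixed for the check (TNFRSF8, FUT4, CCL17, IRF4, TRAF1, FSCN1, CD40 and CD274) were all above the filter, 8 of 8. Their summed signal, to which the brightest probe sets add most, was 29840 with the control vector and 29983 after knock-down. Of the 8 log2 ratios, 4 were below 0 and 4 above 0, with a median of -0.075. CD40 and FUT4, 2 of the 8, were at least 1.5-fold lower in their brightest probe set, beside 5.42% of all measured genes. The probe sets of CD40 and FUT4 lay on both sides of 0, however. They ranged from -0.74 to 0.66 over 4 for CD40 (median -0.15) and from -0.64 to 0.36 over 2 for FUT4 (median -0.14). No T cell marker (0 of 4, single signals up to 106.7) and no monocyte marker (0 of 4, single signals up to 70.63) was above the filter, which applies to the mean of both arrays. Of 6 B cell markers 3 were above the filter, with a summed signal of 410.9 with the control vector and 634.5 after knock-down. Of these, CD79A read 178.4 and 331.6 (log2 ratio 0.85). MS4A1 (0.44) and POU2F2 (0.26) had mean signals under 200, where the median log2 ratio of all kept probe sets was 0.158. The part of these differences in the DUSP results was not tested. The ratio of 3' to 5' signal lay between 0.948 and 1.17 for GAPDH and ACTB on both arrays.

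The DUSP genes differed in both directions, and the largest differences were lower values in the PRAME knock-down cells. Each gene was counted once, by its brightest kept probe set, that is the one with the highest mean log2 signal of both arrays. DUSP4, DUSP1 and DUSP16 were at least 1.5-fold lower, which is 3 of 10 genes, beside 5.42% of all 11794 measured genes. None of the 10 was at least 1.5-fold higher, beside 7.54% of all measured genes. At 2-fold only DUSP4 remained, 1 of 10 genes, beside 0.729% of all measured genes, and none was 2-fold higher, beside 1.73% of them. The median log2 ratio of the 10 genes was -0.13, and that of all measured genes was -0.01. The log2 ratios of the 10 genes had an SD of 0.551, beside 0.406 for all measured genes.

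All 10 genes had at least 1 kept probe set, and 21 of the 23 probe sets were kept. Of these, 12 had a log2 ratio below 0 and 9 above 0. At least 1.5-fold lower were 7 of 21, beside 6.2% of all kept probe sets, and none was at least 1.5-fold higher, beside 8.21% of all kept probe sets. Of the 7 genes with several kept probe sets, DUSP4, DUSP10 and DUSP16 were below 0 in every one, and DUSP6 and DUSP22 were above 0 in every one. Among all 5840 genes with several kept probe sets, 28.3% were below 0 and 21.2% above 0 in every probe set. DUSP1 and DUSP8 had probe sets on both sides of 0.

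**Figure D1:**
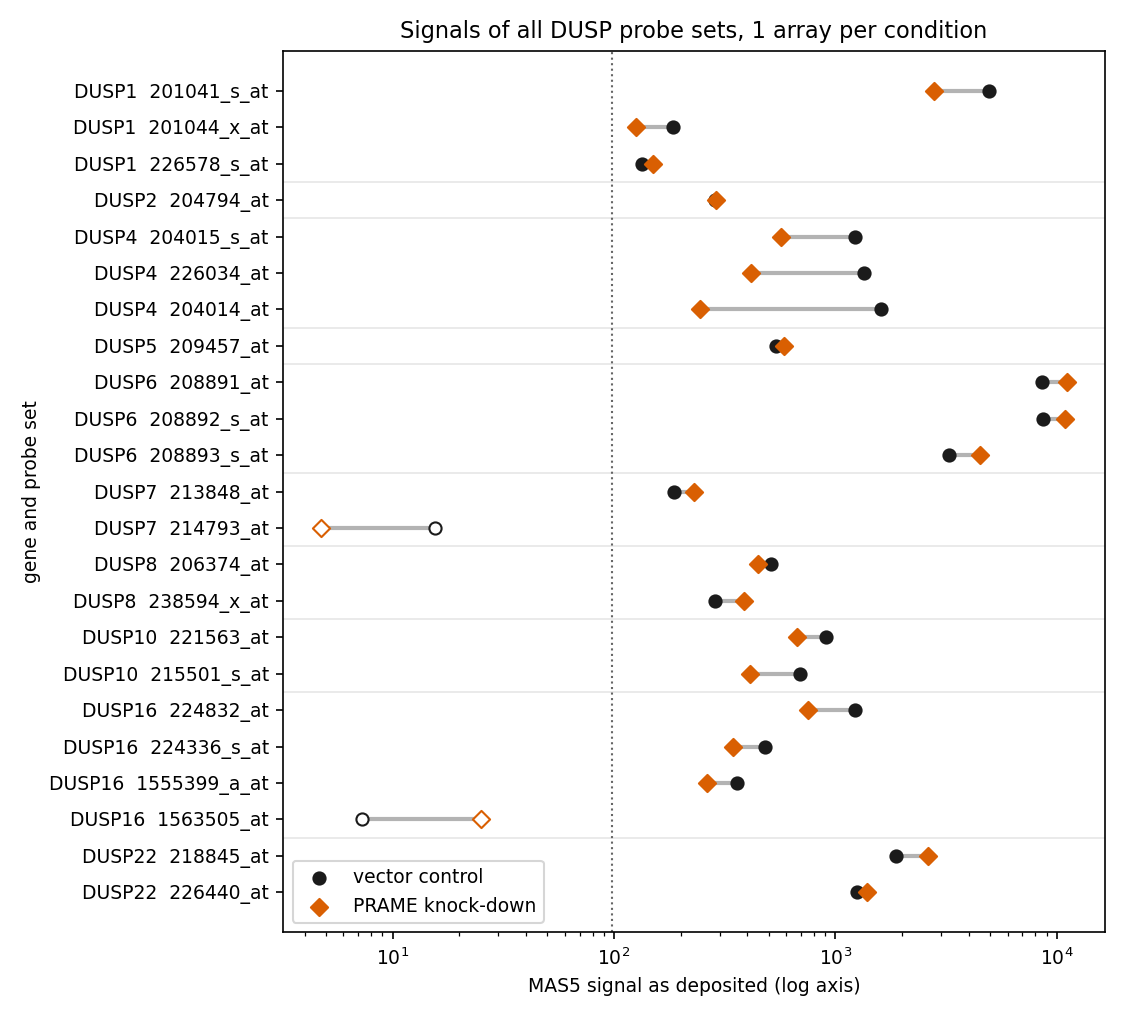
MAS5 signal as deposited (log axis) of the 23 DUSP probe sets in vector control cells (black circles) and PRAME knock-down cells (orange diamonds), 1 array per condition; a grey line joins both values of a probe set, open symbols are below the filter, and the dotted line stands at the filter of 97.7. All 3 DUSP4 probe sets were lower in the knock-down cells, from 1604 to 244.8 for 204014_at, whereas all 3 DUSP6 probe sets were slightly higher.

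The first group are the inducible nuclear phosphatases DUSP1, DUSP2, DUSP4 and DUSP5. DUSP4, also known as MKP2, acts on ERK, JNK and p38 and was the lowest of the 10 genes. Probe set 204014_at read 1604 with the control vector and 244.8 after knock-down, which is 6.76-fold lower after centering (log2 ratio -2.76). Probe set 226034_at read 1345 with the control vector and 414.3 after knock-down (3.35-fold lower), and 204015_s_at read 1223 and 569.7 (2.21-fold lower). The knock-down array was thus lower in every DUSP4 probe set, and all knock-down signals lay above the filter. Of the 1000 kept probe sets nearest in mean signal, none had a lower log2 ratio than 204014_at or 226034_at, and 0.5% had a lower one than 204015_s_at. Only 0.925% of the genes with several kept probe sets were at least 1.5-fold lower in all of them, and DUSP4 was the one DUSP gene among these.

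The size of the DUSP4 difference depended on the probe set. The control signals of the 3 probe sets lay between 1223 and 1604, but the knock-down signals between 244.8 and 569.7. The log2 ratios therefore spanned 1.61, and 98.8% of the 1556 further genes with 3 kept probe sets had a narrower range. The gene was counted by 204015_s_at, which was the dimmest of the 3 with the control vector and had the highest mean log2 signal only because it was brighter than the others after knock-down. This choice favors the smallest difference, and 204015_s_at had the smallest of the 3. Which transcripts the probe sets detect was not analyzed here.

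DUSP1, also known as MKP1, is an early response phosphatase with a preference for JNK and p38. Its brightest probe set 201041_s_at read 4945 with the control vector and 2785 after knock-down (1.83-fold lower, log2 ratio -0.87), and 0.3% of the probe sets nearest in signal had a lower ratio. The remaining probe sets were near the filter. Probe set 201044_x_at read 183.9 with the control vector and 126 after knock-down (log2 ratio -0.59). In contrast, 226578_s_at was slightly brighter in the knock-down cells with 133.4 and 150.1 (log2 ratio 0.13). It lay in the middle of the probe sets nearest in signal, of which 47.6% had a lower ratio. The lower value of DUSP1 thus rested on 201041_s_at and, with less distance from probe sets of like signal (4.5% lower), on 201044_x_at.

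DUSP2 (PAC1), a phosphatase first known from activated T cells, and DUSP5, which is selective for ERK, had 1 probe set each. DUSP2 read 284.7 with the control vector and 290.3 after knock-down (log2 ratio -0.02). DUSP5 read 536.8 with the control vector and 587 after knock-down (log2 ratio 0.08). Both lay in the middle of the probe sets nearest in signal, of which 45.1% and 64% had a lower log2 ratio. Within the 4 inducible nuclear phosphatases, DUSP4 and DUSP1 were therefore lower and DUSP2 and DUSP5 nearly equal in both conditions.

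**Figure D2:**
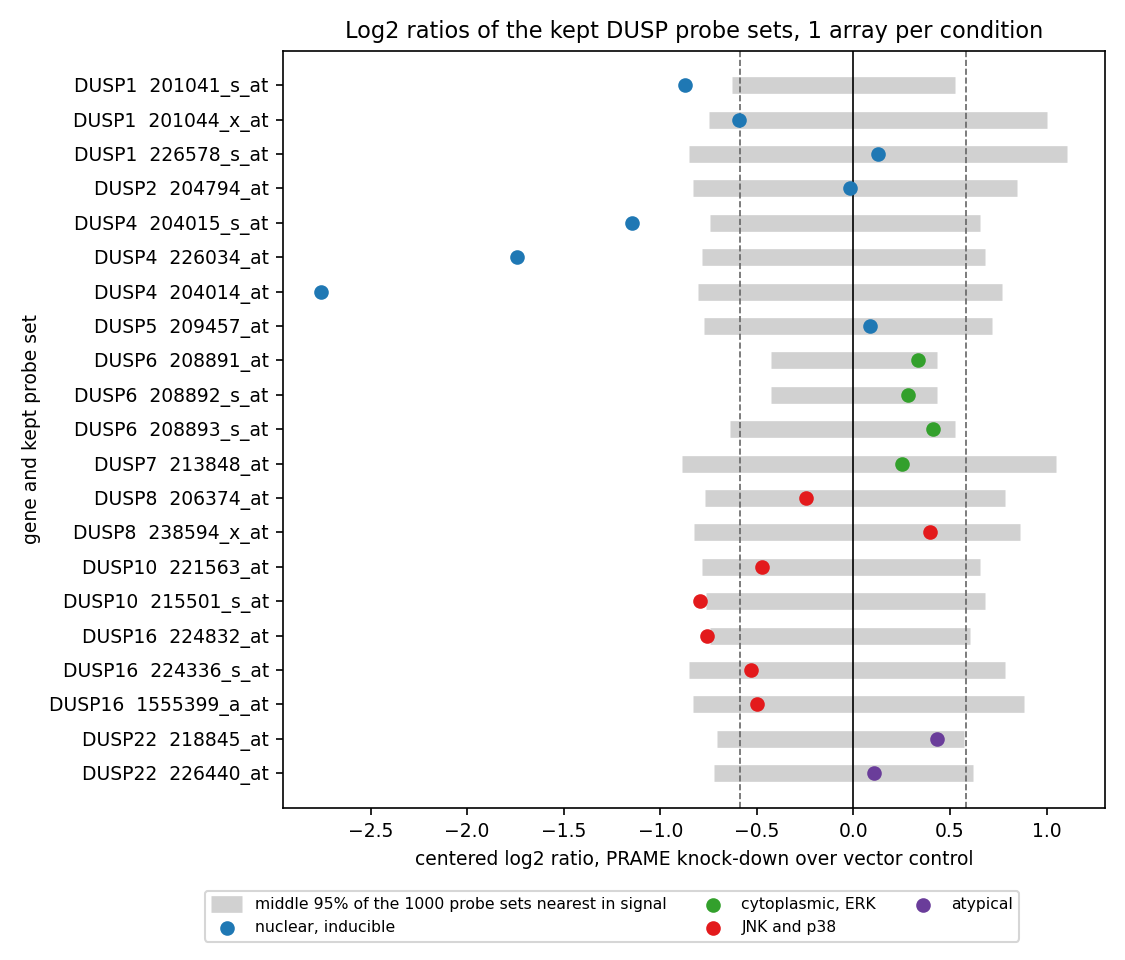
Centered log2 ratio (knock-down over vector control) of the 21 kept DUSP probe sets (points, colored by group), from a single array each. In grey, bars mark the middle 95% of the log2 ratios of the 1000 kept probe sets nearest in mean signal, and dashed lines stand at 1.5-fold. The 3 DUSP4 probe sets (-2.76 to -1.15) and the DUSP1 probe set 201041_s_at (-0.87) lie clearly left of their bars, DUSP10 215501_s_at and DUSP16 224832_at at the left ends of theirs, and the DUSP6 probe sets near the right ends.

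The cytoplasmic phosphatases DUSP6 and DUSP7 are selective for ERK, and DUSP6 (MKP3) is a well known readout of ERK activity. All 3 DUSP6 probe sets were bright and slightly higher in the knock-down cells. Probe set 208891_at read 8580 with the control vector and 11170 after knock-down (log2 ratio 0.34). Probe set 208892_s_at read 8655 and 10858 (0.28), and 208893_s_at read 3262 and 4480 (0.41). None reached 1.5-fold, but between 92.1% and 95.1% of the probe sets nearest in signal had a lower log2 ratio. The range of 0.13 between the probe sets was narrow, since only 7.65% of the 1556 further genes with 3 kept probe sets had a smaller one.

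The DUSP7 probe set 213848_at read 186.5 with the control vector and 229.3 after knock-down (log2 ratio 0.25), and 66.1% of the probe sets of like signal had a lower ratio. The DUSP7 probe set 214793_at was below the filter with signals of 15.56 and 4.733, and its ratio was not counted. DUSP6 and DUSP4, which share ERK as a substrate and the induction by ERK activity, thus lay on opposite sides of 0 in every kept probe set.

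DUSP8, DUSP10 and DUSP16 prefer JNK and p38 over ERK. DUSP10 (MKP5) was lower in both probe sets. It read 905.8 with the control vector and 673.7 after knock-down for 221563_at (log2 ratio -0.47), and 695.4 and 413.3 for 215501_s_at (log2 ratio -0.80). The gene was represented by the first of these and so stood just short of 1.5-fold, whereas the second was 1.74-fold lower.

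DUSP16 (MKP7), which binds JNK and shuttles between nucleus and cytoplasm, was lower in all 3 kept probe sets. Probe set 224832_at read 1226 with the control vector and 749.1 after knock-down (1.69-fold lower, log2 ratio -0.76). Probe set 224336_s_at read 479.8 and 343 (log2 ratio -0.53), and 1555399_a_at read 360.9 and 263.7 (log2 ratio -0.50). These 3 ratios were close to each other, with a range of 0.26, and between 2.4% and 10.3% of the probe sets nearest in signal had a lower log2 ratio. The fourth probe set, 1563505_at, was below the filter with signals of 7.264 and 25.09 and was not counted.

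The probe sets of DUSP8 did not point one way. Probe set 206374_at read 513.6 with the control vector and 446.1 after knock-down (log2 ratio -0.25), and 238594_x_at read 285.5 and 388.1 (log2 ratio 0.40). Neither stood apart from probe sets of like signal, of which 26.8% and 82.3% were lower.

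DUSP22 (JKAP) is a small atypical phosphatase without the MAP kinase binding domain, known in T cells as a brake on antigen receptor signaling through LCK. It read 1881 with the control vector and 2624 after knock-down for 218845_at (log2 ratio 0.44), the highest ratio of the 10 genes. For 226440_at it was 1249 and 1389 (log2 ratio 0.11). Both were higher in the knock-down cells and both were below 1.5-fold.

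Promoter sequences are shown for DUSP1, DUSP10 and DUSP16, whose brighter probe sets were lower after knock-down, and for DUSP6, whose 3 probe sets were all higher. They are the 250 bases before the transcript start in RefSeq (GRCh38.p14), all read on the minus strand, 5′ to 3′. Such windows were found for 8 of the 10 genes, the others being DUSP4 and DUSP5. Capitals mark matches to 4 of the motifs searched, each on either strand. The first is the cAMP response element (CRE), written TGACGTCA. The second is the E-box, whose letters are CACGTG. The remaining ones are the TATA box, searched as TATAAA, and the CCAAT box, searched by the letters of its name. The positions are chr5:172771196-172771445 for DUSP1, chr1:221742090-221742339 for DUSP10, chr12:12562864-12563113 for DUSP16 and chr12:89352502-89352751 for DUSP6.
DUSP1: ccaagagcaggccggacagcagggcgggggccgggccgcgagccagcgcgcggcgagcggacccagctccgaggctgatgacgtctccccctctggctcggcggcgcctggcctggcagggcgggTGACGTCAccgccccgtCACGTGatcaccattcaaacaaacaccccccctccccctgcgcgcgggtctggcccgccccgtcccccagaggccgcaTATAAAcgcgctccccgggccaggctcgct
DUSP10: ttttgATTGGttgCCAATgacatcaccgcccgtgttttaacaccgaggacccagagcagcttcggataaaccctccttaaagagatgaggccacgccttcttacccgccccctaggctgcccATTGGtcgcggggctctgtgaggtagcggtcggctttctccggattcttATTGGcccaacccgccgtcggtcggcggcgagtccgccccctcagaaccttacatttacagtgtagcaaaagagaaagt
DUSP16: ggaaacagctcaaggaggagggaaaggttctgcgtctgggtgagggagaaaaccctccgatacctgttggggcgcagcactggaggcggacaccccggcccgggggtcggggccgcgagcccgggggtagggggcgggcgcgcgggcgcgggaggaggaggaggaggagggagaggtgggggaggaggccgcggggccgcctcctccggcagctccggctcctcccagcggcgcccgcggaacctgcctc
DUSP6: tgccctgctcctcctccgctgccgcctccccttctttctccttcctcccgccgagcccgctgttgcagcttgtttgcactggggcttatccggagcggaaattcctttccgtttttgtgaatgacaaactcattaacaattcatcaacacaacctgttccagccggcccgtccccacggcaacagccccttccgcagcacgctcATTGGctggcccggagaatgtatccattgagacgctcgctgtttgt
The DUSP1 window held a CRE from 125 to 118 bases, an E-box from 108 to 103 bases and a TATA box from 30 to 25 bases before the start. Of all 35116 RefSeq windows, 1.65% held this CRE, 6.34% this E-box and 10.7% this TATA box. The CRE was found once more among the 8 genes, as 2 copies in the window of DUSP8, whose probe sets differed in direction, and the E-box once more in that of DUSP2, which was nearly equal in both conditions. The DUSP10 window shown held 4 CCAAT boxes, and those of DUSP6 and DUSP8 held 1 each, a motif present in 32% of all windows. DUSP10 has another window, chr1:221736901-221737150, which held none of the motifs searched. The DUSP16 window held none of the motifs searched. No window of the 8 genes held the letters of an AP-1 site (TGACTCA, in 4.2% of all windows), an ETS site (CCGGAAGT, 3.42%), an EGR site (GCGTGGGCG, 0.72%) or a CArG box (1.16%). No motifs overlapped each other in these windows. A match of letters does not show that a factor binds.

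The kinases upstream of the DUSPs and the genes they induce were compared by lists. Of 15 genes of the ERK cascade 10 were measured, with a median log2 ratio of -0.15. At least 1.5-fold lower was 1, namely the ERK kinase MAP2K2, which read 4291 with the control vector and 2444 after knock-down (log2 ratio -0.86), and none was higher. The scaffold KSR1 (-0.46) and the kinase ARAF (0.48) followed. Which of these genes passed 1.5-fold depended on the probe set, since the median over the kept probe sets was -0.58 for MAP2K2, short of it, and -0.92 for KSR1, past it. Of 20 genes of the JNK and p38 cascades 15 were measured, with a median of -0.11. At least 1.5-fold lower were 2, the kinase MAP3K5 (ASK1) with signals of 6176 and 2945 (log2 ratio -1.11) and GADD45B, an activator of MAP3K4, with 753.1 and 492.4 (-0.66), and none was higher. The kept probe sets ranged from -1.11 to -0.357 over 2 for MAP3K5 and from -1.21 to -0.059 over 3 for GADD45B. The JNK gene MAPK9 followed with -0.50. By the median over probe sets MAP3K1 (-0.70) was past 1.5-fold as well, while its brightest one was at -0.25. For comparison, the median of all measured genes was -0.01, and 5.42% of them were at least 1.5-fold lower and 7.54% higher.

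Genes known to be induced by ERK lay on both sides of 0. Of 18 such genes 12 were measured, 6 below 0 and 6 above 0, with a median log2 ratio of 0.003. The Sprouty gene SPRY4, an inhibitor of receptor tyrosine kinase signaling, was higher with signals of 84.93 and 162.2 (log2 ratio 0.89), starting below the filter. The next largest differences, of PHLDA1 (-0.58) and SPRY1 (-0.42), were below 1.5-fold. Thus 1 of 12 was at least 1.5-fold higher, beside 7.54% of all measured genes. By the median over probe sets SPRED2 (-0.59, against -0.35 for its brightest one) was past it. Of 19 other dual-specificity phosphatases and their relatives 14 were measured, with a median of 0.015. The only one past 1.5-fold was DUSP19 with signals of 131 and 82.79 (log2 ratio -0.71), 1 of 14 genes, beside 5.42% of all measured genes. DUSP19 had 1 kept probe set, and its knock-down signal lay below the filter. The cofilin phosphatase SSH1 (0.43) and STYXL1 (0.25) followed. Over its 5 kept probe sets STYXL1 ranged from 0.229 to 0.966.

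**Figure D3:**
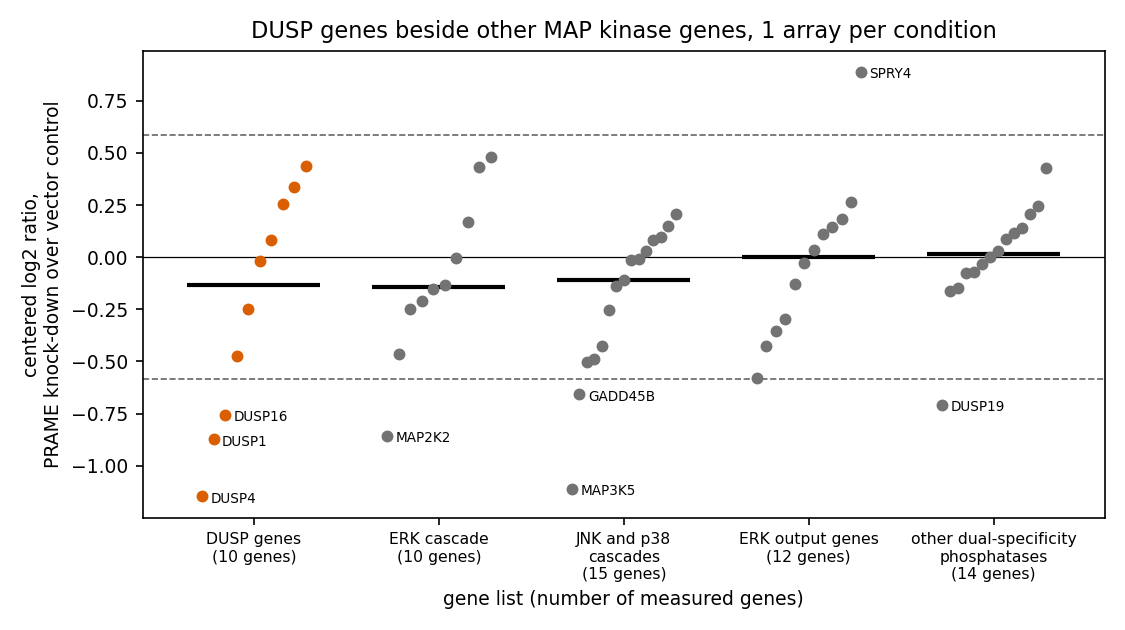
Centered log2 ratio (knock-down over vector control) of each measured gene of 5 lists (points, sorted within a list; number of genes in brackets), 1 array per condition. Thick lines are medians and dashed lines stand at 1.5-fold; genes past these are named. By the brightest probe set of each gene, the DUSP genes range from -1.15 to 0.44. The 14 other dual-specificity phosphatases lie between -0.71 and 0.43, most of them close to 0, whereas single further probe sets lie outside this range.

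The direction of the clear differences did not depend on the scaling. DUSP4 and DUSP1 were at least 1.5-fold lower in each alternative in which they were measured (8 and 7), with log2 ratios from -1.74 to -1.06 and from -0.97 to -0.59. DUSP16 was so in 7 of 8 alternatives and had -0.53 when the median of its probe sets was taken. DUSP10 passed 1.5-fold in that alternative alone (-0.63). DUSP6, DUSP7 and DUSP22 stayed above 0 in all alternatives that measured them. DUSP2, DUSP5 and DUSP8 changed sign in 1 alternative each.

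**Figure D4:**
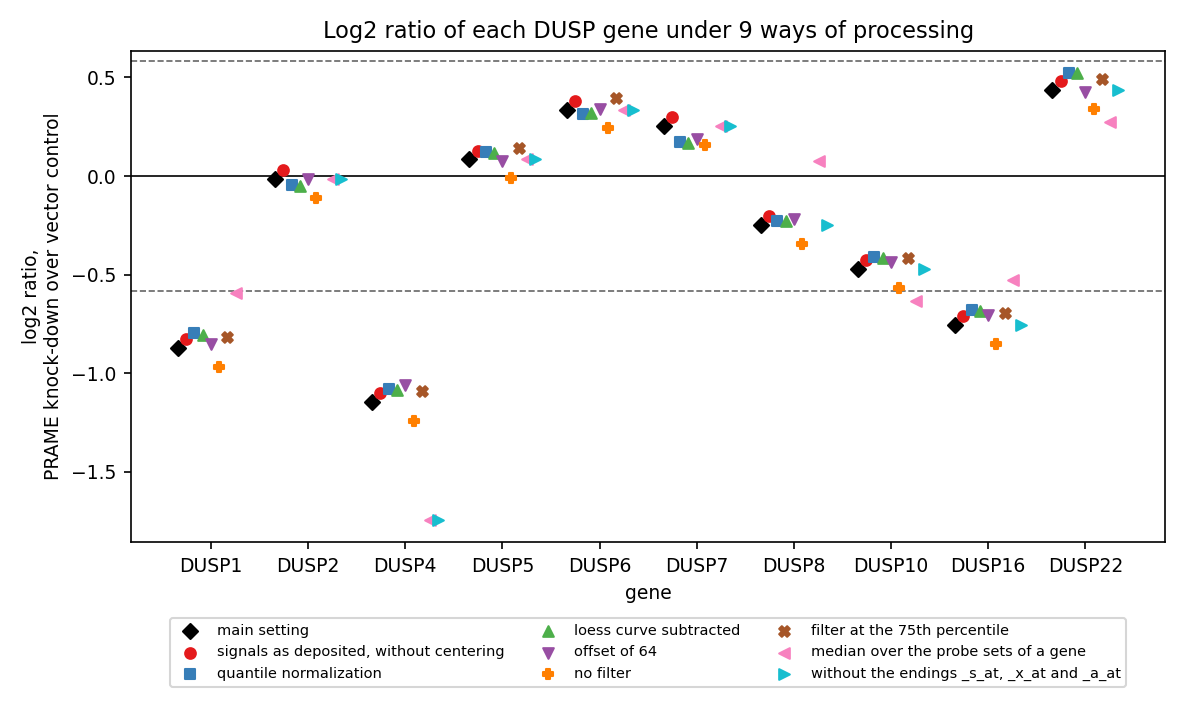
Log2 ratio (knock-down over vector control) of each DUSP gene in the main setting (black diamonds) and under 8 alternatives (colored symbols), 1 array per condition; dashed lines stand at 1.5-fold. The scaling moved the genes little, whereas the choice of probe set moved DUSP4 to -1.74, DUSP1 to -0.59 and DUSP8 to 0.075.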

How the data were processed

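RNA of L-428 cells with the control vector and with the PRAME knock-down vector was hybridized to 1 array each. Per the labels and the methods, the authors used MAS5 in Affymetrix Expression Console 1.1 and deposited MAS5 signal intensity values on a linear scale. Detection calls and RMA values were not used here. The members, gene lists and rules were chosen with earlier results of these data known.

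The 62 control probe sets were left out, log2 was taken of the signals as they are, the 27307 probe sets at least as bright on average as the median one were kept, and 0.045 was subtracted from the log2 ratios. Of the 54675 probe sets the platform annotation gives 1 symbol for 41097, several for 1801 and none for 11777; 41043 were found in RefSeq (GRCh38.p14), whose symbols were used. Since the annotation names no build, gene coordinates are given only with the promoter sequences. Named genes are the 10 members, PRAME, the markers and, per list, up to 3 with the largest log2 ratios. MAPK8, MAPK10, MAPK12, MAPK13, MAP3K1 and SPRED2 were named after their values were seen. Listed genes without a kept probe set were not counted. MAS5 detection limits were not at hand, so the filter stands in for them. The code was tested on simulated data. Alternatives were uncentered ratios, quantile normalization, a loess curve (span 0.4), 64 added to all signals, no filter or one at the 75th percentile, the median of each gene over its probe sets, and leaving out probe sets that end in _s_at, _x_at or _a_at. Python 3.11.15, numpy 2.4.6, pandas 2.3.3 and statsmodels 0.14.6 were used.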

Additional observations from a re-analysis of the deposited data

How the results depend on the processing

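No paired analysis was possible because each condition has 1 array. In place of a spread between replicates, a value was taken as moved when it differed by more than the pooled SD between different probe sets of one gene (0.332 on the log2 scale), a spread that cultures may exceed, and a count when it changed by more than 1.5 times. Of 108 values for PRAME, the 10 genes, their counts and their median under the alternatives, 2 moved: the log2 ratio of DUSP4 was -1.74 both when its probe sets were averaged by their median and when those ending in _s_at, _x_at or _a_at were left out, against -1.15 for the one used. No value past 1.5-fold changed its sign. Many of the 108 values could hardly move. Leaving out the centering or changing the filter shifts all log2 ratios by one constant each, here far below 0.332. Genes with 1 kept probe set stay the same when the median is taken, and leaving out endings keeps any brightest probe set without them. The number of unmoved values is thus no measure of how the genes would vary between cultures. The count of lower DUSP genes was 3 in each alternative but the one without these endings, where it was 2 of 9 because all DUSP1 probe sets carry them. The median of the DUSP genes lay between -0.41 with the filter at the 75th percentile, which left 7 genes, and 0.029 with the median over probe sets. DUSP2 was at 0.028 without centering, DUSP5 at -0.01 without a filter and DUSP8 at 0.075 with the median over probe sets. Over all genes, 273 were at least 1.5-fold lower and 254 higher with the filter at the 75th percentile, 2331 and 3480 without a filter, and 464 and 478 with the offset, against 639 and 889; the filters change the number of genes. The SD of the log2 ratios was 0.512 for mean signals under 200 and 0.252 at or above 4000. The kept DUSP probe sets under 200 were 201044_x_at and 226578_s_at of DUSP1.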

Other observations

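The JNK genes encode substrates of DUSP10 and DUSP16. MAPK8 (JNK1) had 5 kept probe sets, which were all below 0, with log2 ratios between -0.49 and -0.26. Its brightest one read 2293 with the control vector and 1688 after knock-down. MAPK9 (JNK2) ranged from -0.83 to -0.065 over 3 kept probe sets. MAPK10 (JNK3), with a low signal of 183.4 and 209.6, had a log2 ratio of 0.15. MAPK8 and MAPK9 were thus below 0 in every kept probe set on the same pair of arrays as DUSP10 and DUSP16. Among all genes with several kept probe sets, 28.3% were below 0 in every one. Of the p38 genes, only MAPK13 and MAPK12 were among the measured genes of the list. In the brightest probe set MAPK13 had a log2 ratio of -0.01 and MAPK12 of 0.028, nearly equal in both conditions. Each had 2 kept probe sets, and the further one was at -0.094 for MAPK13 and at -0.358 for MAPK12.

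The genes next to each DUSP gene were taken as up to 10 measured ones on each side in the gene order of GRCh38.p14. The neighbours of DUSP4 on chromosome 8 had a median log2 ratio of -0.07 and a lowest value of -0.89, beside -1.15 for DUSP4. The neighbours of DUSP16 on chromosome 12 had a median of -0.03, and those of DUSP10 on chromosome 1 of -0.05. Those of DUSP2 on chromosome 2 had a median of 0.084 and those of DUSP6 on chromosome 12 of 0.049. DUSP8 was at -0.25, whereas its neighbours on chromosome 11 had a median of 0.092, and 4 of these 20 were higher by 1.5-fold or more and none lower. The neighbours of DUSP1 on chromosome 5 had a median of -0.27, and the other 525 measured genes of this chromosome of -0.16. Those of DUSP7 on chromosome 3 (0.26) and of DUSP22 on chromosome 6 (0.26, 11 genes) had medians above 0, and both DUSP genes were above 0 too. DUSP5 was at 0.084, whereas its neighbours on chromosome 10 had a median of -0.33, and 5 of these 20 were lower and 2 higher by 1.5-fold or more. Among the 20 neighbours each of DUSP1, DUSP4 and DUSP16, 2 were lower by as much, and 1, 0 and 1 were higher. Of all measured genes, 5.42% were lower and 7.54% higher by 1.5-fold or more.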
